A study of Mus musculus with 6 samples.

Results

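The 10 genes described here encode the proteins that replace histones in the heads of sperm and factors that act in that exchange. They were chosen by name from the table of 38715 genes of a mouse testis series: Prm1, Prm2 and Prm3 (protamines), Tnp1 and Tnp2 (transition proteins), Hils1 (a spermatid linker histone), Brdt, Chd5, Rnf8 and Tssk6. The table held 9 of them under these names. Hils1 was taken as the row H1f9, because RefSeq lists H1.9 as another name of Hils1 and gives it the same chromosome, 11, and the same length, 864 bases. It is called H1f9 below.

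The series held 6 RNA-seq libraries of whole testis, 3 titled Middle and 3 titled Control. Middle was read as the MES-exposed group of the design text, since the titles hold no other group, and the series title places the exposure in early life. The sources used here do not give what MES stands for, the dose, the strain, the age of the mice or whether each library is a different animal. P-values therefore measure only the spread between these libraries, which may be technical.

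In spermatids, DNA is first wound on histones and ends up packed on protamines, small arginine-rich proteins that let the sperm nucleus shrink. Histones are acetylated and marked with ubiquitin, chromatin is opened, transition proteins take the place of histones, and protamines then take the place of transition proteins. The mRNAs of protamines and transition proteins are made in round spermatids and stored before they are translated in elongating spermatids. Their transcription is known to depend on CREM, a factor that binds cyclic AMP response elements.

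The stretches before the starts of Prm1, Prm2, Tnp1 and Tnp2 are shown because these 4 genes held most of the signal of the group. Each sequence is the 250 bases before the gene start in RefSeq's table for GRCm38.p6, on the minus strand. They lie at chr16:10796824-10797073 (Prm1), chr16:10792106-10792355 (Prm2), chr1:73015900-73016149 (Tnp1) and chr16:10788656-10788905 (Tnp2). Capitals mark a match on either strand to TGANNTCA, the cyclic AMP response element TGACGTCA with its middle pair left free, or to TATAA.
Prm1: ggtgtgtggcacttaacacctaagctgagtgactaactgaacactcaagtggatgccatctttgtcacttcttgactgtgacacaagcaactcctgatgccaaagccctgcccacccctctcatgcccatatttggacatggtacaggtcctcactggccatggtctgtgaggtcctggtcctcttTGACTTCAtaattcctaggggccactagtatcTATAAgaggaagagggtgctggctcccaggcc
Prm2: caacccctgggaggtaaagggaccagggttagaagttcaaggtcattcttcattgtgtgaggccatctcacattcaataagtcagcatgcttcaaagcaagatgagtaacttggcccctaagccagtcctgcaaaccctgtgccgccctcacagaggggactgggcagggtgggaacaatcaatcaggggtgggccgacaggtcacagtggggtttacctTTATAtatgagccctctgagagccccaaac
Tnp1: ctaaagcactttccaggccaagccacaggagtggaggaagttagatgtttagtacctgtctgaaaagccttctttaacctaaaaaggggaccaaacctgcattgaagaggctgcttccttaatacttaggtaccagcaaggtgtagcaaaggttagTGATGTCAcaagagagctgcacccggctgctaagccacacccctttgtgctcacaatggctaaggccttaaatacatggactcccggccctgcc
Tnp2: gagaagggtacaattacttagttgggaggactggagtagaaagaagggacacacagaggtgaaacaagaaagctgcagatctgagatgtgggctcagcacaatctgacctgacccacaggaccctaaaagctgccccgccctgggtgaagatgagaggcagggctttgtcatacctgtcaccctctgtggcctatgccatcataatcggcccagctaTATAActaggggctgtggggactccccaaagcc

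A window was found for all 10 genes. None of the 10 windows held the full element TGACGTCA, which 1.55% of the 32851 windows in the table held. The looser TGANNTCA was in 3 of the 10, those of Prm1 (TGACTTCA, 64 to 57 bases before the start), Prm3 (TGAGGTCA, 60 to 53) and Tnp1 (TGATGTCA, 94 to 87), and in 11.9% of all windows. TATAA or its reverse complement TTATA was in 3 of the 10, those of Prm1 (32 to 28 bases before the start), Prm2 (30 to 26) and Tnp2 (33 to 29), and in 22.8% of all windows. No match overlapped another. A match describes letters only and shows no binding.

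Levels are given in RPKM, which divides the reads of a gene by its length and by the reads of the library, as deposited. The libraries held 46649138 to 56435498 reads in Middle and 38820385 to 58389391 in Control. The least covered of the 10 genes, Rnf8, had 1538 to 1841 reads in Middle libraries and 1253 to 1895 in Control libraries, and the best covered, Prm2, had 469820 to 624975 in Middle libraries and 433575 to 639187 in Control libraries. Without molecular identifiers, reads do not count molecules one by one.

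Between Middle and Control testes, the test called 0 of the 10 genes. The test (limma on log2(RPKM + 1), Benjamini-Hochberg over 15040 genes) called 8 genes in all, which is 0.0532% of those tested (0.0465% lower and 0.00665% higher in Middle). It called 1 without Middle replicate 1, 3 without Control replicate 1 and 0 without any other single library. For 8 of the 10 genes the log2 fold change lay below 0, as it did for 44.1% of all tested genes. The median was -0.12 for the 10 and 0.03 for all tested genes. The voom test on the reads behind the values also called 0 of the 10. An unadjusted p under 0.05 was reached by Prm1 and Tnp1, both lower in Middle, against 9.02% of all tested genes that were lower at this level. The 3 Middle libraries lay below the 3 Control libraries for Prm1, H1f9 and Chd5, that is 3 of 10, and for 11.4% of all tested genes; they lay above them for 0 of 10, against 17.9%. Counted in either direction, the groups did not overlap for the same 3 of 10 genes, against 29.3% of all tested genes. Leaving out any single library gave 7 to 9 of the 10 below 0.

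**Figure D1:**
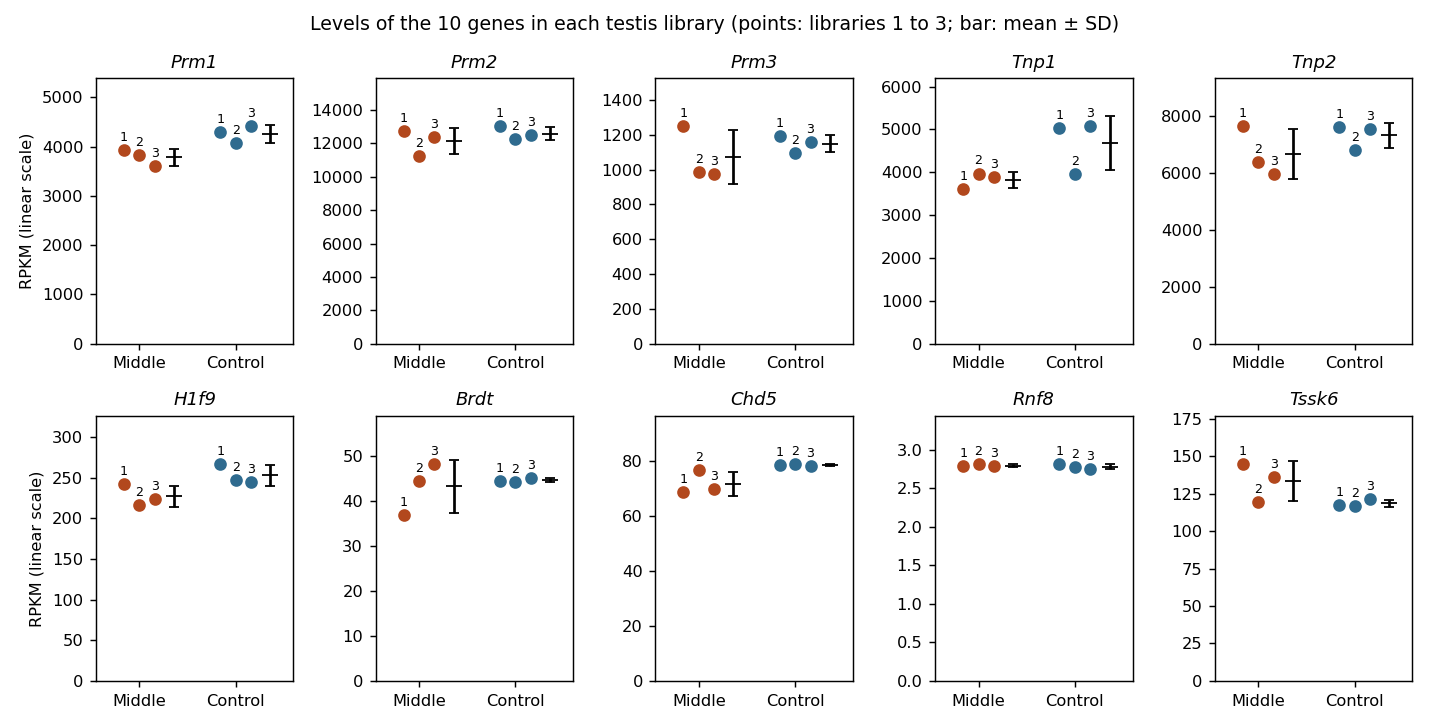
RPKM of each of the 10 genes (y axes, linear, from 0) in the Middle and Control libraries (points, labelled with the replicate number), with the group mean and SD as a bar. The groups do not overlap for Prm1, H1f9 and Chd5, Control replicate 2 of Tnp1 lies with the Middle libraries, and Brdt and Tssk6 spread more widely in Middle than in Control.

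Prm1 and Prm2 encode the protamines that pack most of the DNA of mouse sperm. Prm1 (GRCm39 chromosome 16, 10614190 to 10623703, minus strand) was at 3935.8, 3823.9 and 3599.4 RPKM in Middle replicates 1 to 3, against 4302.4, 4063.2 and 4412.9 RPKM in Control replicates 1 to 3. Every Middle library lay below every Control library. The means were 3786 ± 171 RPKM in Middle and 4260 ± 179 in Control (SD, n = 3 each), which gave a log2 fold change of -0.17 (SE 0.06; adjusted p = 0.202, limma). The 95% interval of that fold change ran from -0.32 to -0.02.

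Prm2 (chromosome 16, 10609244 to 10613998) was the most abundant gene of the table in all 6 libraries. It was at 12766, 11265 and 12387 RPKM in Middle and at 13032, 12245 and 12493 in Control. The groups overlapped, since Middle replicate 1 lay above Control replicates 2 and 3. Its log2 fold change was -0.05 (SE 0.07, adjusted p = 0.647, limma), and its 95% interval, -0.21 to 0.10, leaves room for a ratio of 0.864 to 1.07. The fold change was -0.09 without Middle replicate 1, -0.03 without Control replicate 1 and -0.001 without Middle replicate 2.

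The level of Prm2 over that of Prm1 was 3.24, 2.95 and 3.44 in Middle libraries and 3.03, 3.01 and 2.83 in Control libraries, so the balance of the protamine mRNAs overlapped between the groups. The mean ratio was 3.21 ± 0.25 in Middle and 2.96 ± 0.11 in Control (SD, n = 3 each).

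Prm3 (chromosome 16, 10608369 to 10608778), an intronless gene between Prm2 and Tnp2 whose acidic product lacks the arginine runs of the other protamines, was at 1248.7, 988.02 and 973.83 RPKM in Middle and at 1193.6, 1095.5 and 1159.4 in Control. Middle replicate 1 was the highest of the 6 libraries, and Middle replicates 2 and 3 were the lowest. The log2 fold change was -0.11 (SE 0.10, adjusted p = 0.525, limma), and it was -0.23 without Middle replicate 1 and -0.05 without Middle replicate 3.

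Transition proteins sit on the DNA between the loss of histones and the arrival of protamines. Tnp1 (chromosome 1, 73054233 to 73055068), the smaller of the pair, was at 3604.5, 3971 and 3895 RPKM in Middle, against 5026.1, 3955.6 and 5074.7 RPKM in Control. Control replicates 1 and 3 lay above all other libraries, and Control replicate 2 lay among the Middle libraries. Of the 10 genes Tnp1 had the log2 fold change farthest from 0, -0.29 (SE 0.10), with an adjusted p of 0.1995 (limma). The means were 3824 ± 193 RPKM in Middle and 4686 ± 633 in Control (SD, n = 3 each). Without Control replicate 2 the fold change was -0.40, and without Control replicate 3 it was -0.22.

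Tnp1 shares 40 exon bases with 1700027A15Rik on the other strand. The strand setting of the counting is not stated, so reads of the pair may not have been told apart there. 1700027A15Rik was at 1105.2, 1197 and 1300.7 RPKM in Middle and at 1566.3, 1266.1 and 1565.7 in Control. In it, as in Tnp1, Control replicates 1 and 3 were the highest libraries. Its log2 fold change was -0.28 (SE 0.10, adjusted p = 0.198, limma).

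Tnp2 (chromosome 16, 10605800 to 10606524) was the second most abundant gene of the table in every library. It was at 7645.7, 6371.2 and 5964.9 RPKM in Middle and at 7624.6, 6806.2 and 7532.5 in Control. As for Prm3, Middle replicate 1 was the highest library and Middle replicates 2 and 3 were the lowest. The log2 fold change was -0.14 (SE 0.10, adjusted p = 0.418, limma), and it was -0.25 without Middle replicate 1 and -0.07 without Middle replicate 3. The level of Tnp2 over that of Tnp1 was 2.121, 1.604 and 1.531 in Middle libraries and 1.52, 1.72 and 1.48 in Control libraries, so Middle replicate 1 stood above the other 5 and the groups overlapped.

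Prm1, Prm2, Prm3 and Tnp2 lie side by side on the minus strand of chromosome 16 within 17904 bases, in the order of transcription Prm1, Prm2, Prm3, Tnp2. The deposited exons leave 191 bases between Prm1 and Prm2, 465 between Prm2 and Prm3 and 1844 between Prm3 and Tnp2. The span and the 191 bases rest on lone upstream exons. In bases from the upstream end, that of Prm1 covers 0 to 102 and its next exon begins at 8953. That of Prm2 covers 9705 to 9978 and its next begins at 13734. The exon lengths behind the RPKM, 571 bases for Prm1 and 894 for Prm2, count these lone exons. RefSeq gives spans, introns included, of 492 bases for Prm1 and 729 for Prm2. The starts used for the sequences above are therefore not the upstream ends of these 2 deposited genes. The genes around the cluster were at another scale of level. Socs1, the next gene past Tnp2 and an inhibitor of cytokine signalling, was at 0.18 to 0.29 RPKM in Middle and 0.14 to 0.25 in Control. Rmi2, a subunit of a complex that resolves DNA crossings on the other side of the cluster, was at 0.14 to 0.25 RPKM in Middle and 0.20 to 0.29 in Control.

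**Figure D2:**
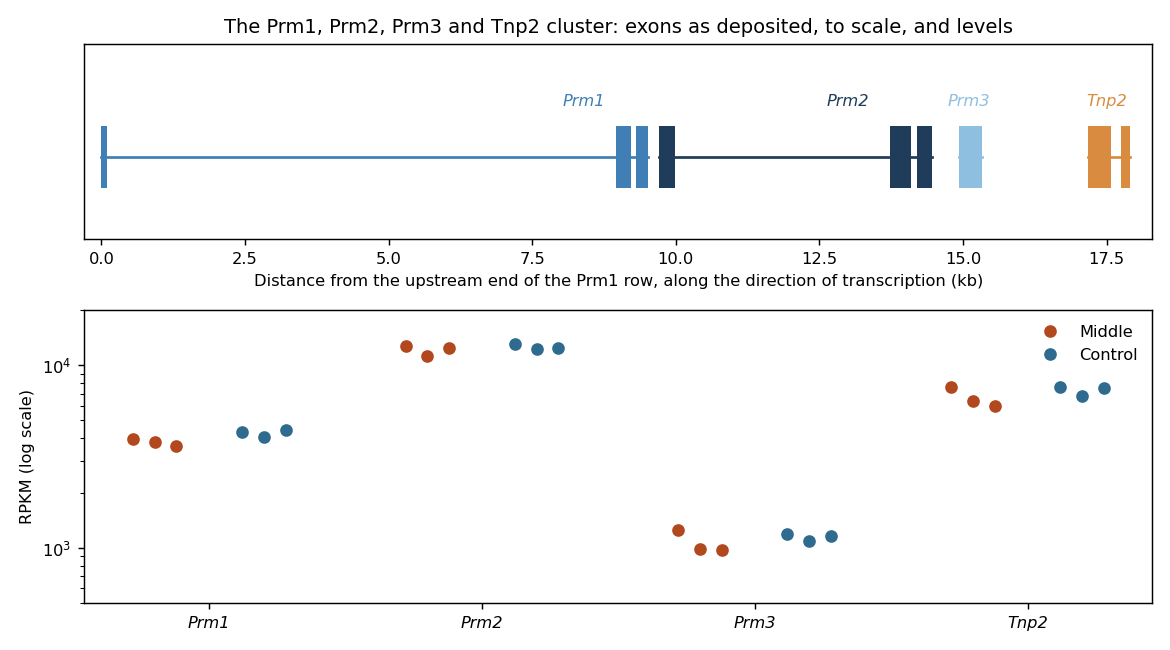
Top, exons (boxes) of the 4 clustered genes as the deposited table lists them, to scale, with distance in kb along the direction of transcription. Bottom, RPKM of each gene on a log axis in the Middle and Control libraries, in which Prm2 lies between 11265 and 13032 RPKM and Prm3 between 973.83 and 1248.7 over both groups.

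H1f9 (chromosome 11, 94858419 to 94859282, plus strand) encodes the linker histone of spermatids in which histones are being removed. It was at 242.03, 216.9 and 223.54 RPKM in Middle, against 267.53, 247.06 and 244.42 RPKM in Control. The groups did not overlap, with Middle replicate 1 just under the lowest Control library. Its means were 227 ± 13.02 RPKM in Middle and 253 ± 12.6 in Control (SD, n = 3 each), with a log2 fold change of -0.15 (SE 0.07, adjusted p = 0.244, limma).

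By level per length, the order was nearly the same in both groups. Prm2 came first and Tnp2 second, followed by Tnp1 and Prm1, whose libraries overlapped in each group, then by Prm3, H1f9, Tssk6, Chd5, Brdt and Rnf8. Apart from Tnp1 and Prm1, no neighbours in this order overlapped over the 6 libraries. Rnf8 ranked 10038 to 10172 of all genes in Middle libraries and 9908 to 10235 in Control libraries.

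The other 4 genes act on chromatin before and during the exchange. Brdt (chromosome 5, 107479025 to 107534924) encodes a testis bromodomain protein that binds acetylated histones and is needed for their removal. It was at 36.89, 44.44 and 48.30 RPKM in Middle, against 44.40, 44.26 and 45.05 RPKM in Control. Of the Middle libraries, replicate 1 lay below all Control libraries, replicate 3 above them and replicate 2 among them. The log2 fold change was -0.05 (SE 0.10, adjusted p = 0.761, limma), and it was 0.05 without Middle replicate 1 and -0.14 without Middle replicate 3.

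Chd5 (chromosome 4, 152423108 to 152474651) encodes a chromatin remodeller expressed in spermatids and needed for the exchange in mice. It was at 68.58, 76.70 and 69.63 RPKM in Middle, against 78.32, 78.98 and 78.19 RPKM in Control. The groups did not overlap. Its means were 71.6 ± 4.42 RPKM in Middle and 78.5 ± 0.43 in Control (SD, n = 3 each), with a log2 fold change of -0.13 (SE 0.06, adjusted p = 0.265, limma). As a share of all RPKM in the library, rather than as RPKM, the groups of Chd5 overlapped by a narrow margin, with 0.0179% in the highest Middle library and 0.0178% in the lowest Control library. Chd5 shares 101 exon bases with Gm13645 on the other strand. Gm13645 was at 51.84, 73.82 and 70.93 RPKM in Middle and at 69.21, 75.95 and 60.73 in Control. In both genes Middle replicate 1 was the lowest library. The part of shared reads in the level of Chd5 was not tested.

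Rnf8 (chromosome 17, 29833764 to 29863965) encodes a ubiquitin ligase that marks histones at DNA breaks and, in mice, in elongating spermatids. It was at 2.79, 2.82 and 2.79 RPKM in Middle and at 2.82, 2.77 and 2.76 in Control, so the groups overlapped within a narrow range. Its log2 fold change was 0.005 (SE 0.06, adjusted p = 0.969, limma), with a 95% interval of -0.14 to 0.15. Its deposited exons overlap those of Gm28043 on the same strand by 1542 bases, so its level is uncertain to that extent. Gm28043 was at 12.3 to 12.5 RPKM in Middle and 11.3 to 11.9 in Control.

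Tssk6 (chromosome 8, 70354834 to 70356168) encodes a testis serine kinase that is needed in mice for the marking and removal of histones. It was at 145.06, 119.11 and 136.42 RPKM in Middle, against 117.27, 116.83 and 121.33 RPKM in Control. Middle replicates 1 and 3 lay above all Control libraries and Middle replicate 2 among them. With a log2 fold change of 0.17 (SE 0.08, adjusted p = 0.268, limma) Tssk6 was the only one of the 10 genes, Rnf8 aside, above 0. Its fold change was 0.25 without Middle replicate 2 and 0.10 without Middle replicate 1.

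Tssk6 shares 375 exon bases with Ndufa13, a subunit gene of respiratory complex I on the other strand, and 15 with Yjefn3. Ndufa13 was at 213.98, 174.46 and 184.4 RPKM in Middle and at 178.04, 168.03 and 178.13 in Control (log2 fold change 0.12, adjusted p = 0.405, limma). Yjefn3 was at 41.49, 33.32 and 38.10 RPKM in Middle and at 32.18, 30.87 and 35.04 in Control. In each of the 3 genes Middle replicate 1 was the highest library. Whether overlapping reads were assigned by strand is not stated, and their part in the level of Tssk6 was not tested.

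**Figure D3:**
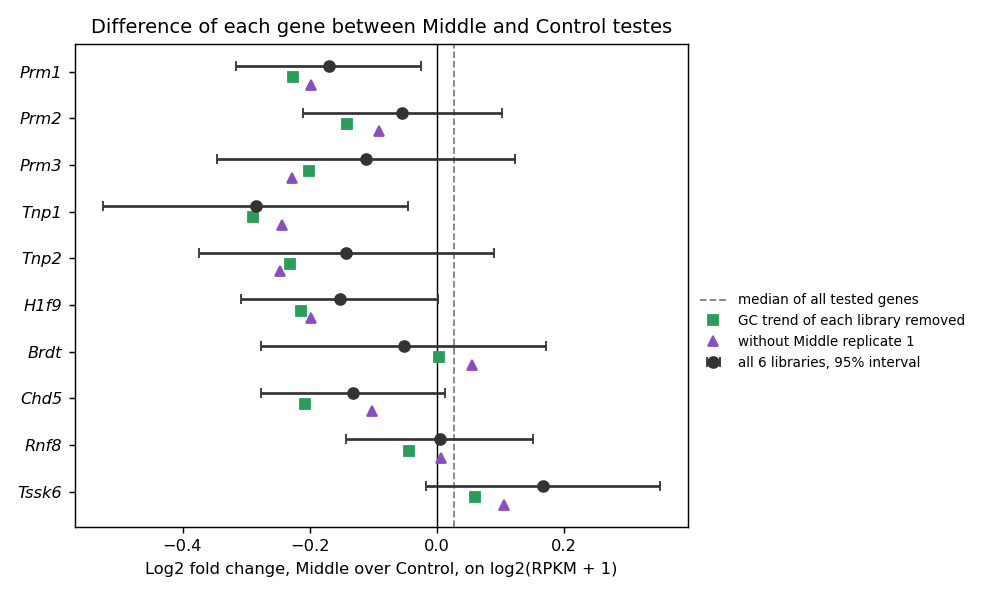
Log2 fold change of each gene, Middle over Control (x axis), with its 95% interval (black), with the trend of each library on GC content removed (green squares) and without Middle replicate 1 (purple triangles). Prm1 and Tnp1 are the genes whose black interval lies below 0, and Tssk6 comes closer to 0 under both changes.

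The libraries differed in how levels depended on base composition. Across 14004 tested genes, GC content was ranked against how far each library stood from the average of the 6, and the rank correlation was 0.46, 0.02 and -0.07 in Middle replicates 1 to 3 and -0.30, -0.22 and -0.25 in Control replicates 1 to 3. These correlations run across genes, which are not independent replicates. Among the 10 genes Brdt had the lowest GC content, 44.4%, followed by Tnp1 with 49.2%, and Tssk6 had the highest, 64.8%. Middle replicate 1 was the lowest of all libraries for Brdt, Tnp1 and Chd5 (GC content 56.0%) and the highest for Tssk6, Prm3 (58.8%) and Tnp2 (58.5%).

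With the GC trend removed, no gene of the 10 passed either. The log2 fold change was then -0.23 for Prm1, -0.14 for Prm2, -0.20 for Prm3, -0.29 for Tnp1, -0.23 for Tnp2, -0.21 for H1f9 and -0.21 for Chd5, so 6 of these 7 lay farther from 0 than in the uncorrected values and Tnp1 was at the same value to 2 decimals. That of Tssk6 was 0.06, against 0.17 uncorrected. Brdt was at 0.003 and Rnf8 at -0.04. The groups did not overlap in the trend, so trend and group cannot be told apart.

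The 10 genes together held 6.54%, 6.26% and 6.24% of all RPKM in Middle libraries, against 7.27%, 6.65% and 7.10% in Control libraries. Every Middle library lay below every Control library. The mean share was 6.35 ± 0.16% in Middle and 7.01 ± 0.32% in Control (SD, n = 3 each), a difference of -0.66 percentage points. The pooled SD of single libraries within groups was 0.26, which is not the error of that difference. No test was made of this sum over chosen genes. As summed RPKM the groups overlapped, at 29696, 26880.0 and 27301 RPKM in Middle libraries against 31689, 28655 and 31164 RPKM in Control libraries. The base of the share also differed: all genes together summed to 454151 RPKM in Middle replicate 1 and to 429175 to 438662 in the other libraries. The difference in share ranged from -0.84 without Control replicate 2 to -0.53 without Control replicate 1.

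Almost the whole share came from protamines and transition proteins. Prm2 held 2.76 ± 0.11% of all RPKM in Middle and 2.89 ± 0.08% in Control, and Tnp2 held 1.51 ± 0.16% in Middle and 1.68 ± 0.09% in Control (SD, n = 3 each). Tnp1 held 0.87 ± 0.07% in Middle and 1.08 ± 0.14% in Control, and Prm1 held 0.86 ± 0.03% in Middle and 0.98 ± 0.03% in Control. On this scale the groups did not overlap for Prm1, Prm2 and H1f9, all lower in Middle, nor for Tssk6, which was higher, that is 4 of 10 genes, against 28.6% of all tested genes by share of RPKM (11.6% lower and 17% higher). Together Tnp1 and Tnp2 made up -0.38 of the difference in percentage points and Prm1 and Prm2 made up -0.25. Brdt, Chd5, Rnf8 and Tssk6 together held 0.0571% in Middle and 0.0561% in Control.

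RPKM counts short genes heavily, and as a share of reads the 10 genes held less. They made up 2.13%, 1.93% and 1.99% of reads in Middle libraries and 2.24%, 2.06% and 2.19% in Control libraries, and on this scale the groups overlapped. The share of RPKM also depends on what else the library holds. Mitochondrially encoded genes held 3.93%, 3.07% and 3.23% of all RPKM in Middle libraries and 2.15%, 2.74% and 2.60% in Control libraries, so they lay on the other side. With these and the 20 most abundant other genes left out, the 10 genes held 7.30% of the rest in Middle and 7.88% in Control. The difference was -0.58 percentage points, on a smaller base than the -0.66 above.

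**Figure D4:**
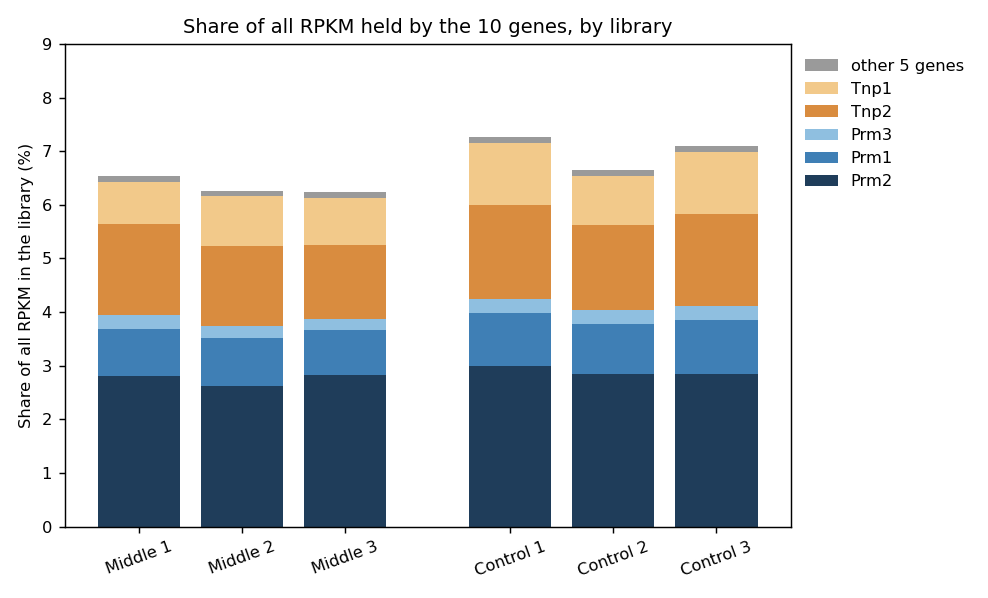
Share of all RPKM in each library (y axis, percent, from 0) held by the 10 genes, stacked by gene, for the 3 Middle and the 3 Control libraries. The stacks reach 6.24% to 6.54% in Middle and 6.65% to 7.27% in Control, with Prm2 as the largest part of each.

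Markers of the cells that make these transcripts were compared as lists, described by counts and medians. Of 20 tested round spermatid markers 16 had a log2 fold change below 0 (median -0.16), and of 20 elongating spermatid markers 12 had (median -0.11), against 44.1% and a median of 0.03 for all tested genes. None of them passed over all genes (limma); an unadjusted p under 0.05 was reached by 7 lower and 1 higher gene in each list. The round spermatid markers summed to 3230 to 3257.1 RPKM in Middle and 3388.2 to 3495.1 in Control, and the elongating spermatid markers to 7054.5 to 7275.6 in Middle and 7356.6 to 7777.6 in Control. The median of the elongating spermatid list was -0.06 without Control replicate 1, where that of the 10 genes was -0.10, and -0.05 with sample weights, where that of the 10 genes was -0.16. In whole testis, fewer spermatids and less of a transcript in each spermatid cannot be told apart.

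The round spermatid markers include the ion channel gene Catsper4 at 10.1 ± 1.72 RPKM in Middle and 16.3 ± 1.25 in Control, as well as Tssk1, a kinase gene, with 43.3 ± 0.59 in Middle and 54.8 ± 3.61 in Control (SD, n = 3 each). Of the elongating spermatid markers, Capza3, a capping protein gene, was at 40.3 ± 1.68 RPKM in Middle and 49.5 ± 1.83 in Control, and Dnajb3, which encodes a chaperone, was at 354 ± 13.9 in Middle and 421 ± 19.2 in Control (SD, n = 3 each). These 4 had the smallest p-values of their lists and did not pass (adjusted p 0.177 to 0.178, limma).

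Markers of other cells and signs of RNA quality mostly lay above 0, as did most tested genes, of which 44.1% lay below 0 (median 0.03). Of 15 tested markers of pachytene and later spermatocytes 10 lay above 0 (median 0.10), of 14 tested Sertoli cell markers 10 (0.14), of 11 Leydig cell markers 7 (0.08), of 12 peritubular and stromal markers 11 (0.18), of 9 spermatogonium markers 7 (0.19) and of 9 macrophage and blood markers 6 (0.01, but 4 and a median of -0.01 under median-of-ratios scaling). Summed levels overlapped between the groups for spermatogonium markers, at 184.95 to 229.96 RPKM in Middle and 224.55 to 225 in Control. Those of peritubular and stromal markers overlapped too, at 217.89 to 255.77 in Middle and 229.66 to 250.87 in Control. So did those of Leydig cell and of macrophage and blood markers. Sertoli cell and spermatocyte markers summed higher in each Middle library than in any Control library. The spermatocyte sum, 1882.8 to 1886.7 RPKM in Middle and 1806.9 to 1863.2 in Control, is not specific to spermatocytes. It includes Ybx2 (mean 973 in Middle and 945 in Control) and Hspa2 (487 in Middle and 512 in Control). Both also stand in lists of spermatid factors described below. Several of the medians above moved with single libraries. Without Middle replicate 1 the spermatogonium median was 0.10, that of macrophage and blood markers -0.03 and that of Leydig cell markers -0.07. The Leydig cell median was 0.03 without Middle replicate 2, 0.15 without Middle replicate 3 and 0.03 without Control replicate 2, and the spermatocyte median 0.07 without Middle replicate 2 and 0.06 without Control replicate 1. Without any other single library the macrophage and blood median was 0.03 to 0.11. With the GC trend removed the Sertoli cell median was 0.06 and the spermatocyte median 0.04. None of these markers passed (limma); at an unadjusted p under 0.05, 6 spermatocyte markers were higher and 2 lower, 5 Sertoli cell markers higher and 1 lower, 4 peritubular higher and 1 lower, 3 spermatogonium markers higher and 0 lower, and 1 Leydig cell and 1 macrophage marker each way, against 11.7% higher and 9.02% lower of all tested genes. Of 12 epididymis markers 2 were tested, and the list summed to 2.98 to 3.57 RPKM in Middle and 2.89 to 3.48 in Control. All 24 listed ribosomal protein genes lay above 0 (median 0.28, and 0.16 without Middle replicate 1), with summed levels of 2690.9 to 3462.6 RPKM in Middle and 2409.7 to 2570.4 in Control. The mitochondrially encoded list had 8 of 9 tested genes above 0 (median 0.45), and mt-Nd3, the single gene of all lists to pass, was lower in Middle. At an unadjusted p under 0.05 (limma), 17 of the 24 ribosomal protein genes were higher and 0 lower. Of the 9 tested mitochondrially encoded genes, 8 were higher and 1 lower at this level, against the same 11.7% and 9.02% of all tested genes. The part of these differences in the values of the 10 genes was not tested.

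**Figure D5:**
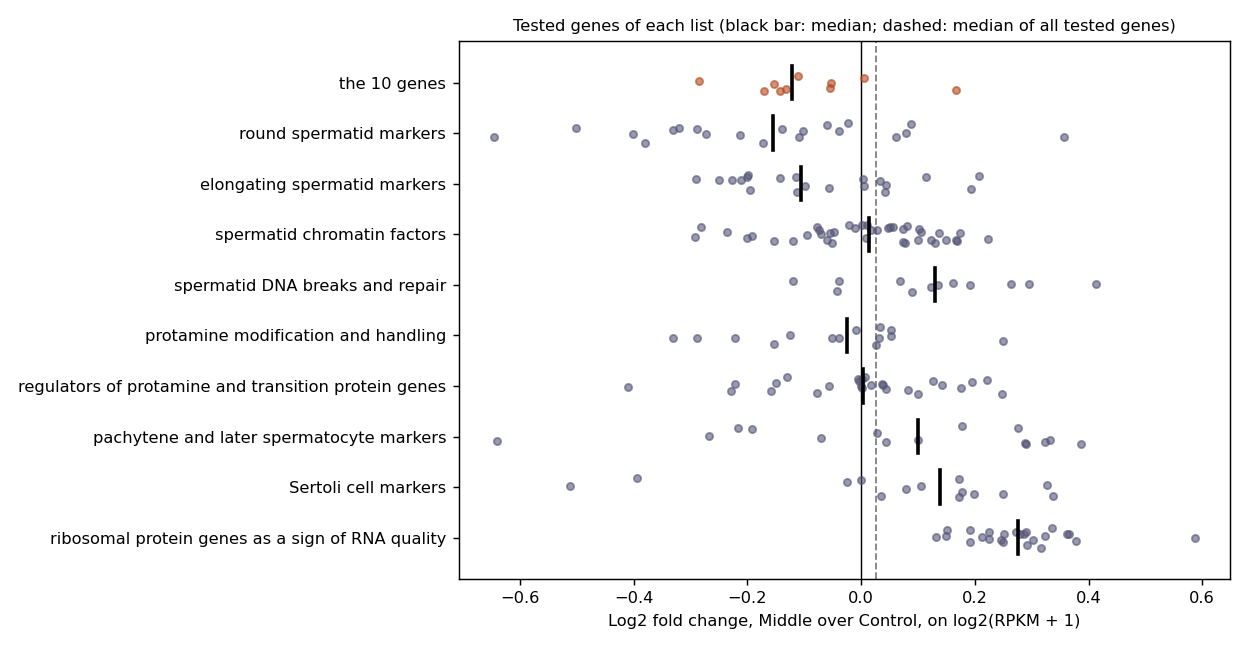
Log2 fold change, Middle over Control (x axis), of every tested gene of 10 lists (points), with each list's median (black bar) and the median of all tested genes (dashed). The 10 genes and both lists of spermatid markers have medians of -0.16 to -0.11, and the ribosomal protein list one of 0.28.

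The other factors of histone exchange did not share one direction. Of 44 listed spermatid chromatin factors 40 were tested, 23 lay above 0 and 17 below, with a median of 0.01 and 0 called by limma (3116 of all 15040 genes, 20.7%, had an unadjusted p under 0.05, as did 6 of these 40). Cdyl, which encodes a chromodomain protein of spermatid chromatin, was at 82.16, 80.84 and 81.71 RPKM in Middle, against 93.36, 93.00 and 93.58 in Control, with little spread in either group (adjusted p = 0.178 by limma for a log2 fold change of -0.19, SE 0.05). The histone chaperone gene Nasp was at 296 ± 45.4 RPKM in Middle and 357 ± 15.4 in Control, and the testis histone gene H2bl1 at 28.3 ± 1.41 in Middle and 32.8 ± 2.81 in Control (SD, n = 3 each). Nap1l4, another histone chaperone gene, was at 60.6 ± 2.58 RPKM in Middle and 53.9 ± 3.41 in Control. The most abundant of the list were the linker histone gene H1f7, at 825 ± 77.0 RPKM in Middle and 880 ± 53.0 in Control, and the chaperone gene Hspa2, at 487 ± 31.9 in Middle and 512 ± 12.98 in Control (SD, n = 3 each).

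Genes that make or repair DNA breaks, which arise in spermatids while histones leave, lay mostly above 0: 9 of 12, with a median of 0.13 (0.09 without Middle replicate 3), 0 called (limma) and 4 with an unadjusted p under 0.05, all higher. Of all tested genes 44.1% lay below 0, and 11.7% were higher at an unadjusted p under 0.05 (limma). H2ax, the histone variant marked at breaks, was at 42.36, 36.23 and 37.96 RPKM in Middle, against 26.53, 30.37 and 29.89 RPKM in Control. The groups did not overlap (adjusted p = 0.177 by limma for a log2 fold change of 0.41, SE 0.08). The ligase gene Lig1 was at 12.6 ± 0.73 RPKM in Middle and 10.1 ± 0.56 in Control, the repair scaffold gene Xrcc1 at 27.3 ± 2.04 in Middle and 22.6 ± 0.98 in Control, and Parp1, which encodes a poly(ADP-ribose) polymerase, at 26.6 ± 0.65 in Middle and 23.7 ± 1.47 in Control (SD, n = 3 each). Top2a, a topoisomerase gene of dividing cells, was at 36.8 ± 4.58 RPKM in Middle and 33.6 ± 1.19 in Control. These genes are also expressed in other testis cells, among them dividing germ cells.

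Of 16 genes of protamine modification and handling 14 were tested, 6 above 0 and 8 below (median -0.02, 0 called by limma, 4 with an unadjusted p under 0.05, against 20.7% of all tested genes). Camk4, a kinase that phosphorylates protamine 2 in mice, was at 17.664, 17.497 and 18.437 RPKM in Middle, against 22.79, 19.10 and 21.22 RPKM in Control, without overlap (adjusted p = 0.191, limma). Tssk1, named above as a round spermatid marker, and Tssk2 stand in both lists. The kinase gene Tssk2 was at 262 ± 22.9 RPKM in Middle and 321 ± 26.8 in Control, so Tssk1, Tssk2 and Tssk6 of the same family were not all on one side. Prkar1a, a regulatory subunit gene of protein kinase A, was at 117 ± 12.9 RPKM in Middle and 98.4 ± 6.45 in Control. The most abundant were Meig1, at 889.7 ± 25.0 RPKM in Middle and 914 ± 24.5 in Control, and Tsks, a substrate of the testis kinases, at 384 ± 35.1 in Middle and 427 ± 26.3 in Control (SD, n = 3 each).

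Of 27 listed regulators of protamine and transition protein genes 26 were tested, 15 above 0 and 11 below (median 0.004, 0 called by limma, 6 with an unadjusted p under 0.05, against 20.7% of all tested genes). Ybx2, an mRNA storage protein gene of spermatids, was at 973 ± 23.8 RPKM in Middle and 945 ± 12.5 in Control, and its relative Ybx3 at 373 ± 35.3 in Middle and 416 ± 6.44 in Control (SD, n = 3 each). Paip2, a repressor of poly(A)-binding protein needed for protamine translation in mice, was at 116 ± 2.08 RPKM in Middle and 135 ± 8.30 in Control, and Papolb, a testis poly(A) polymerase gene, at 58.0 ± 10.7 in Middle and 76.6 ± 4.43. in Control Elavl1, an RNA-binding protein gene, was at 7.48 ± 0.73 RPKM in Middle and 6.13 ± 0.33 in Control, and the germ granule gene Tdrd7 at 68.0 ± 4.18 in Middle and 59.3 ± 4.76. in Control Crem, named here after its value was seen, was at 25.2 to 29.9 RPKM in Middle and 26.4 to 26.9 in Control (log2 fold change 0.02, adjusted p = 0.897, limma). Under median-of-ratios scaling the direction of both medians flipped, and the count turned to 11 above 0 and 15 below in this list, and to 19 and 21 in that of chromatin factors.

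The genes most like Prm1 over the 6 libraries, by Pearson's r of log2(RPKM + 1) among the 5130 genes that averaged 10 RPKM or more, were Fam183b (0.99), Pfn3 (0.98), a spermatid profilin gene, and Col22a1 (0.98). Those most like Tnp1 were Ccdc183 (0.99), Zfand6 (0.99) and Tmem239 (0.99). They were picked as the highest of many, so the values only describe the pattern. Pfn3 was at 16.04, 15.50 and 14.50 RPKM in Middle and at 19.50, 17.41 and 21.08 in Control, without overlap as for Prm1. Ccdc183 was at 79.7 to 84.8 RPKM in Middle and 85.9 to 98.3 in Control, with Control replicate 2 next to the Middle libraries as for Tnp1.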

How the data were processed

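The members, lists and tests were chosen with earlier results of these data known. Per the labels' protocols, testis RNA was isolated by Trizol and went into an mRNA library kit. The tool fastp 0.23.0 and the build GRCm39 are named per the submitters' processing notes. Which aligner, counter, annotation and strand setting were used is not stated there or in the labels. The deposited values are RPKM that the authors computed per gene, with exon lists and gene lengths per the file headers.

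Multiplied by gene length, every value was a whole multiple of 1 step per library (tolerance 0.001), which gave the reads. For a gene of 1 kb, 3 fragments (6 reads) equal 0.103 to 0.155 RPKM. Libraries of a group differed by more than sampling noise (chi-square over its degrees of freedom was 6.26 to 34.4) and each was taken as 1 replicate. The only pair of genes that coincide on both strands, Mir451a and Mir451b, had equal reads. This would also hold if neither had reads, so it does not settle the strand setting.

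The 15040 genes that averaged 1 RPKM or more in either group were compared on log2(RPKM + 1) by limma 3.58.1 (R 4.3.3, trended prior variance); tests were two-sided, and Benjamini-Hochberg adjusted p-values under 0.05 were called. Fold changes on this scale understate those of low genes. The fit was tested on simulated data. All 10 members passed the filter. Genes named from the lists are those with the smallest p (up to 4 of a chromatin or regulator list, 2 of a marker list) or the highest mean RPKM (up to 2), and those most like Prm1 and Tnp1 are the 3 with the highest r. Crem was added. GC content was the mean over GENCODE M21 transcripts by symbol, whose coordinates were not used, and promoters came from RefSeq (GRCm38.p6). Alternatives were other scalings, filters, pseudocounts and weights, voom on the recovered reads, a replicate block, removal of the GC trend (loess, span 0.5), and leaving out each library.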

Additional observations from a re-analysis of the deposited data

How the results depend on the processing

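Under 19 alternatives, of which 1 was added after seeing the data (Middle replicate 1 left out with the GC trend removed), none of the 10 genes passed, and 8 of them kept their direction under each. Brdt turned to 0.057 with sample weights, 0.0034 with the GC trend removed, 0.0034 with the replicate block as well, 0.055 without Middle replicate 1 and 0.069 in the added alternative, and reached -0.14 without Middle replicate 3. Rnf8 turned to -0.0091 under median-of-ratios and -0.013 under upper-quartile scaling, -0.044 with the GC trend removed (also with the replicate block), -0.023 in the added alternative and -0.00018 without Control replicate 3, and was at 0.012 without Control replicate 1. The cause was not tested. The number of genes called, 8, was 0 with no filter, 0 with the replicate block, 0 with the block and the GC trend removed, 54 with sample weights, 0 to 3 when 1 library was left out and 6 in the added alternative. No pairing by replicate number was visible: the correlation of deviations of libraries with the same number was -0.15, -0.12 and 0.01, and no library correlated best with its own number. Such correlations across genes cannot exclude pairing, which the labels do not state. Fold changes of Tssk6 ranged from 0.03 to 0.25 and those of Prm2 from -0.14 to -0.001. Such differences did not pass at 3 libraries a group.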
